A study of Arabidopsis thaliana with 8 samples.

Results

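The regions described here were bound by ENAP1 in dark-grown Arabidopsis thaliana seedlings according to the deposited air list, and overlapped no region of the deposited ethylene list. Members were chosen by this absence of overlap, at a threshold of 1 bp, so their presence in air and their absence from the ethylene list are the rule and not a result. They number 1867 of the 4526 air regions on chromosomes 1 to 5, or 41.3% (95% exact interval 39.8 to 42.7). The other 2659 air regions are called shared below, and the ethylene list held 3293 regions in all. Absence from a list does not show that a site was free of ENAP1.

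The labels give 8 libraries in 4 groups of 2, namely ethylene ChIP, ethylene input, air ChIP and air input. All came from whole seedlings of ecotype Col-0 with mutations in EIN3 and EIL1, grown in the dark for 3 days at 24 °C and then treated for 4 h. The treatment was 10 ppm ethylene in hydrocarbon-free air, or that air alone. ENAP1 was pulled down with an antibody against green fluorescent protein, and the inputs had no antibody step. The promoter that drives the tagged protein and the number of lines are not given in the sources used here, nor is it stated whether replicates were separate cultures.

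Ethylene is a gaseous hormone that is perceived by receptors in the endoplasmic reticulum. In its presence the membrane protein EIN2 is cleaved, and its C-terminal end moves into the nucleus, where the transcription factors EIN3 and EIL1 switch on target genes. ENAP1 is a nuclear protein that binds histones and the C-terminal end of EIN2, and it is known for a part in histone acetylation during the ethylene response. All groups, controls included, carried the ein3 eil1 double mutation.

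Each treatment has 1 list, made by the authors from both of its ChIP samples and both inputs. No region therefore has a value per replicate or a spread between replicates, and no difference between treatments was tested. Fold enrichment, as the authors deposited it, sets ChIP signal over local background at the summit, the base of highest signal in a region. Solved together with the deposited −log10 p, it gave a whole number of ChIP fragments over the summit for all 4526 air regions. That count is the depth behind each air value. Intervals on counts and shares cover counting error only.

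The air-only regions were mostly shallow. A median of 42 ChIP fragments lay over their summits (range 23 to 233), against 54 (23 to 219) over those of shared regions. Their local background was slightly higher, at a median of 9.09 against 7.66 fragments. The median fold enrichment was 4.32 in air-only regions (interquartile range 3.71 to 4.98) and 5.91 in shared regions (4.84 to 7.60). The lists themselves were unlike in enrichment and in their lowest values. The median enrichment was 2.84 in the ethylene list (2.42 to 3.45) and 5.06 in the whole air list (4.18 to 6.45), and the lowest −log10 p listed was 8.43 in ethylene and 10.7 in air. The part of this difference in which regions are air-only was not tested. Air-only regions were also narrower, with a median width of 194 bp against 246 bp.

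**Figure D1:**
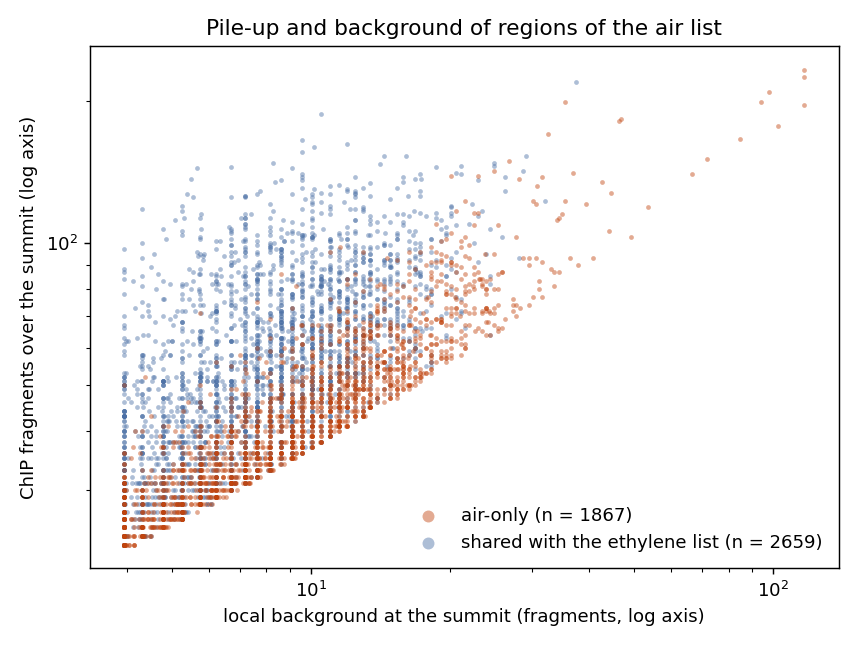
Each point is a region of the air list, with its local background (x, fragments, log axis) and the ChIP fragments over its summit (y, log axis). The 1867 air-only regions lie mostly along the lower edge, near the lowest pile-up that was listed at each background, and make up 165 of the 206 points at 5 or more times the background floor of 3.94.

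The ranking of the air list separated the sets by degree. Of the 100 air regions with the highest −log10 p, 1 was air-only, and of the first 1000 it was 75. When the list was cut into 10 equal bins by fold enrichment, the air-only share was 84.5% (80.9 to 87.8) in the lowest bin and 1.10% (0.359 to 2.56) in the highest. By fragments over the summit the same shares were 63.6% and 18.3%, so depth alone ordered the regions less steeply. These shares describe the rule and carry no test.

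Local background gave another shape. In the 7 lowest of 10 bins the air-only share stayed between 34.9% and 39.3%, and it reached 67.5% (63.0 to 71.8) in the highest bin. A background of at least 5 times the floor, the lowest background of the list at 3.94 fragments, was found at 165 air-only regions (8.84%, 7.59 to 10.2) and at 41 shared regions (1.54%, 1.11 to 2.09). All of the 20 air regions with the lowest fold enrichment were air-only. The lowest lay on chromosome 3 (13537759 to 13538488, TAIR10), inside the annotated gene AT3G33002, where 196 ChIP fragments stood over a background 29.6 times the floor, for an enrichment of 1.67. Another, with the highest pile-up of all members, lay on chromosome 2 (2938208 to 2938808) inside AT2G07080, with 233 fragments and an enrichment of 1.99. The part of high background in the choice of members was not tested.

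**Figure D2:**
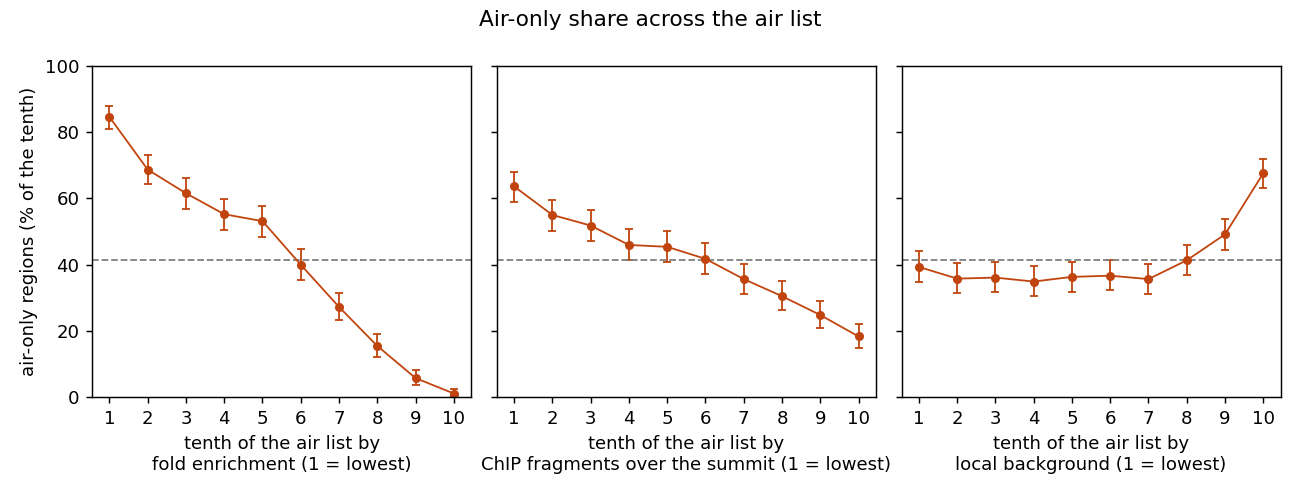
The share of air-only regions (y, % with 95% exact intervals) is plotted for 10 equal bins of the air list, ordered by fold enrichment, by ChIP fragments over the summit and by local background (x, bin 1 lowest). The dashed line marks 41.3%, the share in the whole list, and only the background panel is flat over most bins before it climbs.

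Ranked by fold enrichment, the first members stood at single genes of unlike function. AT4G08170 carried 71 fragments (95% Poisson interval 55.5 to 89.6) over a background of 5.74, with an enrichment of 10.7 (chromosome 4, 5167052 to 5167275). OTLD1 (AT2G27350), an otubain-like deubiquitinase that acts on histones, carried 52 fragments (38.8 to 68.2) over 4.37, with an enrichment of 9.87 (chromosome 2, 11704121 to 11704376). ISU1 (AT4G22220), a scaffold protein for iron-sulfur clusters in mitochondria, carried 75 (59.0 to 94.0) over 7.66, with an enrichment of 8.78. These 3 summits were 18, 40 and 96 bp inside a gene end, and the nearest ethylene regions were 18925, 7393 and 9658 bp away.

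Lower in that group of 10, BGLU25, a beta-glucosidase gene, had an enrichment of 8.01, and ASPG1, an aspartic protease linked to drought avoidance in guard cells, had 7.98. SAUR26, of the family of small auxin-up RNA genes, was the nearest protein-coding gene of a region with 7.96, but at 2563 bp from the summit. AT1G45015, AT5G51340, AT3G62810 and AT5G40270 filled the group, with enrichments of 10.3, 9.05, 8.10 and 7.89. BGLU25 was the member of the group with an ethylene region close by, 265 bp away, and the other 9 had gaps of at least 3157 bp.

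Ranked by −log10 p, other regions came first, most of them with deep coverage on a high background and a modest fold. The region next to MYB102 (AT4G21440), an R2R3-type MYB factor gene, had the highest −log10 p of all members, at 80.4. It carried 199 fragments (172 to 229) over a background of 35.4, for an enrichment of 5.49, and its summit lay 1239 bp outside MYB102 in another annotated gene, AT4G21437 (chromosome 4, 11416614 to 11417087). PUB19 (AT1G60190), a U-box ubiquitin ligase gene known from abscisic acid and drought responses, had a −log10 p of 60.1, with 149 fragments over 26.8 and an enrichment of 5.40. AT5G41860, AT5G11550 and AT1G75960, which ranked between MYB102 and PUB19, and AT1G14430 were alike, with 139 to 170 fragments over backgrounds of 20.1 to 32.5. AT2G22790 had 98 fragments over 11.6, and AT3G62810, AT5G51340 and AT4G08170 were in both groups of 10.

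Gaps from air-only regions to the nearest ethylene region were mostly long, but gaps of random sites were not measured beside them. The median gap was 9821 bp (interquartile range 4201 to 20603), and 925 regions had no ethylene region within 10000 bp. Within 500 bp lay 87 regions (4.66%, 3.75 to 5.72) and within 100 bp 10 regions. In those 87 pairs the ethylene region was itself without an air partner in 11.

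The threshold of the rule therefore passed through few near cases. Just inside it, the region at HSF4, a heat shock factor gene, was 28 bp from an ethylene region, that at PP2CG1, a protein phosphatase gene, 35 bp and that at ATMPK8, a MAP kinase gene, 45 bp. Their enrichments were 4.99, 3.82 and 4.77. Just outside, the regions at NF-YB13, AT2G04540 and TGA1, of which TGA1 encodes a bZIP factor of defence, overlapped an ethylene region by 45, 63 and 63 bp, with enrichments of 3.52, 5.08 and 5.06.

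Where a gene lies in relation to a summit was not used by the rule. Air-only summits gathered a short way inside gene ends, but a smaller share of them did so than of shared summits. Within 500 bp inside an end lay 62.6% of air-only summits (60.4 to 64.8), against 72.3% of shared summits (70.5 to 74.0). Of the 638 ethylene regions that overlapped no air region, called ethylene-only below, 61.9% lay there (58.0 to 65.7). The lower share was therefore not particular to air-only regions. The first 200 bp inside the nearest end held 42.5% (40.3 to 44.8) and 55.2% (53.3 to 57.1). The gene table gives no strand, so starts and ends of transcription could not be told apart.

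**Figure D3:**
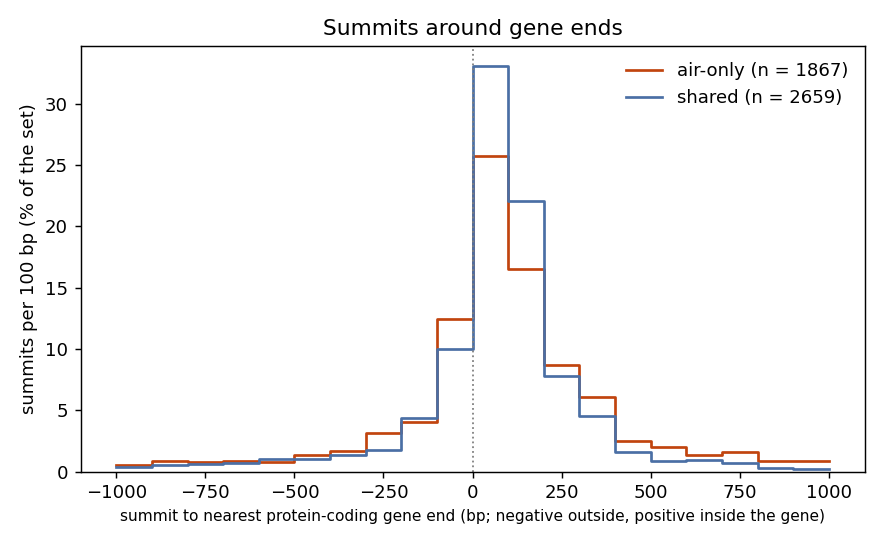
Summits per 100 bp (y, % of each set) are plotted against the distance to the nearest end of a protein-coding gene (x, bp, positive inside the gene). Both sets peak in the first 100 bp inside an end, with 25.8% of air-only and 33.1% of shared summits, and the air-only line is higher beyond about 200 bp inside.

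The remaining air-only summits lay on both sides of that band. Deeper than 500 bp inside a gene were 187 air-only summits (10.0%, 8.69 to 11.5), against 151 shared ones (5.68%, 4.83 to 6.63). In the 1000 bp outside genes were 392 of 1867 (interval 19.2% to 22.9%), against 402 of 2659 shared ones (15.1%, 13.8 to 16.5). Summits in a gene that does not encode a protein, pseudogenes included, were counted as such only if no protein-coding gene held them. There were 55 such air-only summits (2.95%, 2.23 to 3.82), against 108 shared ones (4.06%, 3.34 to 4.88). Beyond all of these were 64 (3.43%, 2.65 to 4.36), against 76 (2.86%, 2.26 to 3.56). Among air regions at or above the median −log10 q, the difference within 500 bp inside an end was smaller. There it was 70.2% of 436 air-only summits (65.6 to 74.4) and 74.2% of 1827 shared summits. Under the same limit the difference outside genes turned round, at 11.9% and 14.0%, while deep inside genes it stayed, at 13.1% and 5.64%. No test was made of these differences, because the regions of a list are not replicates.

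**Figure D4:**
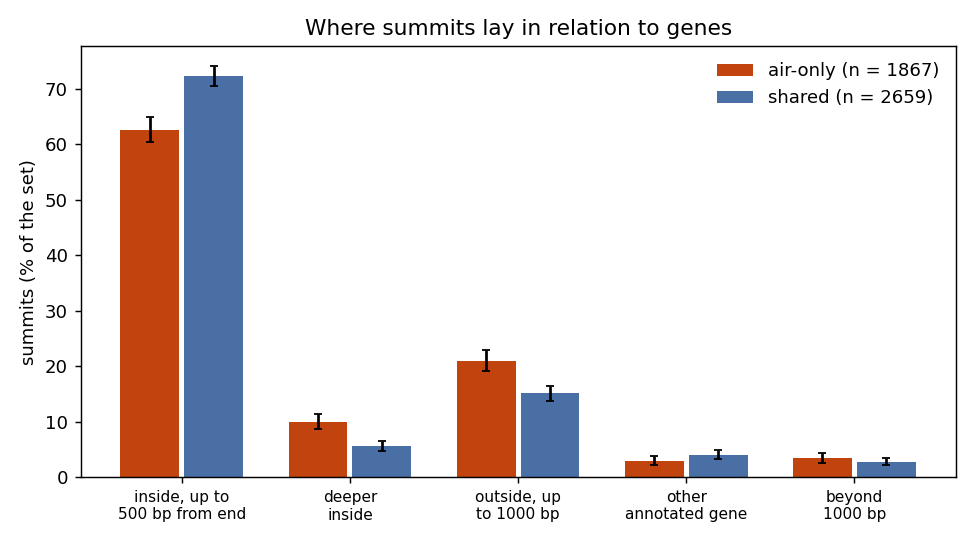
Bars give the share of summits (y, % of each set, with 95% exact intervals) in 5 position classes (x) for air-only and shared regions. Air-only bars are lower just inside gene ends, at 62.6% against 72.3%, and higher deep inside genes and in the first 1000 bp outside them.

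Deep and outer members were unlike in coverage. Air-only regions deep inside genes had a median of 56 fragments over a background of 14.9, where the shared deep regions had 55 over 8.87. A background of 5 times the floor or more was present at 27.8% of the air-only deep regions, against 6.62% of the shared ones. Without regions of such background, 7.93% of air-only summits (6.69 to 9.32) were deep inside genes, against 5.39% of shared summits (4.55 to 6.32). Air-only regions in the 1000 bp outside genes had a median of 33 fragments over 6.22, and 1.28% of them had a high background.

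Among the deep members, AT1G05030 had the highest enrichment, 7.66, with 69 fragments and a summit 533 bp inside. AT5G03380 followed with 7.49 and 36 fragments. NCRK, a receptor-like kinase gene, had 7.05 with 60 fragments, and COQ3, a methyltransferase of ubiquinone synthesis, had 6.43 with 67 fragments and its summit 1000 bp inside. PHYA (AT1G09570), the photoreceptor of far-red light, had 6.07 with 48 fragments, 509 bp inside (chromosome 1, 3100219 to 3100493). These deep genes were chosen after their values were seen, and PHYA lay just beyond the window used below to call a gene bound.

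Of the 55 air-only summits in other annotated genes, 21 were in genes of long noncoding RNAs, 7 in pseudogenes, 8 in transcribed pseudogenes and 1 in a microRNA gene, MIR5651. That region carried 29 fragments for an enrichment of 4.94 (chromosome 3, 17178377 to 17178640), with the nearest protein-coding gene RDUF1, a RING-type ubiquitin ligase gene, 123 bp away. Farther from genes, TTL3, of a family of tetratricopeptide proteins in brassinosteroid signalling, was the nearest gene of a region with an enrichment of 7.72, 1663 bp outside. AIL6, an AP2-type factor of meristems, was nearest to one with 6.57, 1550 bp outside.

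The 5 chromosomes differed little. The air-only share of air regions ran from 38.8% on chromosome 1 to 42.9% on chromosome 5. Per 100 protein-coding genes there were 6.12 air-only regions on chromosome 1 and 7.47 on chromosome 5, the lowest and the highest. Another air region lay within 1000 bp of 274 air-only regions (14.7%), and in 148 of these pairs that neighbour was air-only too. No matching count was made for shared regions, so no clustering of air-only regions is read from these counts.

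Some genes were nearest to several members. By nearest gene end, 84 genes had 2 air-only regions, 8 had 3, and LRX3 and GT18 had 4 each. LRX3 (AT4G13340), a leucine-rich repeat extensin of the cell wall, carried 43, 60, 141 and 74 fragments at its regions, over backgrounds of 8.13, 13.1, 36.8 and 27.3. The enrichments were 4.82, 4.32, 3.75 and 2.65. The highest pile-up at LRX3 therefore stood on the highest background. GT18 (AT5G62220), a glycosyltransferase, carried 60, 67, 51 and 31 fragments, with enrichments of 2.71, 3.02, 4.17 and 4.16. Of the 8 genes with 3 regions, the first 3 by locus number were AT1G05136, HB-7 and AT3G60200. HB-7 (AT2G46680), a homeodomain-leucine zipper factor that responds to abscisic acid and water deficit, had enrichments of 6.40, 4.83 and 5.47 at backgrounds of 1.21, 1.01 and 1 times the floor. AT1G05136 was only the nearest protein-coding gene of its 3 summits, which lay 294 to 1181 bp outside it, in the transcribed pseudogene AT1G05135. The enrichments there were between 2.07 and 3.22 at backgrounds of 8.74 to 13.6 times the floor. At AT3G60200 the enrichments were 5.12, 2.89 and 4.79.

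Genes count as bound here if they have a summit no more than 1000 bp outside or 500 bp inside one of their ends. Of 27444 nuclear protein-coding genes, 2407 (8.77%) had an air-only region in that window. Of these, 283 also had a shared air region and 42 an ethylene region without one. The other 2082 genes (7.59% of all) were bound through air-only regions only, 1993 of them by 1 region. Their median length was 2336 bp, against 2452 bp for genes with a shared region and 2078 bp for all genes. One summit can count for neighbouring genes: 790 air-only regions were in the window of 1 gene, 790 of 2 genes, 47 of 3 or more and 240 of none.

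The gene lists below cover 354 genes in 14 pathways or processes, and were chosen with earlier results of these data known. Of the 354, 41 were bound through air-only regions only, and counts are read against the 7.59% of all genes. For 8 of the 41, the end nearest to the summit belonged to a neighbouring gene. Shares of lists this short have wide intervals, and no list was tested. With a window of 500 bp outside to 200 bp inside, the counts of 8 of the 14 lists moved by over 1.5 times, and the same number did so among regions at or above the median −log10 q. ERF genes then had 2 and 4 genes bound through air-only regions only, jasmonate genes 3 and 2, and rapid stress genes 3 and 2. Gibberellin and brassinosteroid genes had 1 and 0, light signalling genes 2 and 0, and ethylene growth outputs 1 and 0. Of all genes, 1570 (5.72%) and 497 (1.81%) were bound in this way under the same settings, in place of 7.59%.

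**Figure D5:**
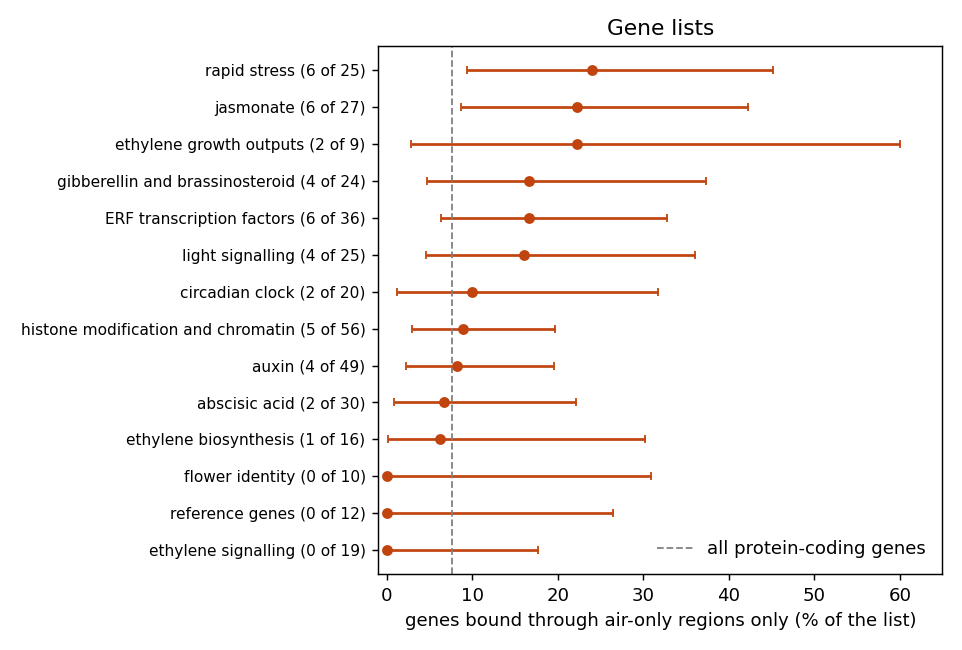
Points give the share of each gene list bound through air-only regions only (x, %, with 95% exact intervals), and the dashed line marks 7.59% of all protein-coding genes. The rapid stress list has the highest share, 24.0%, followed by jasmonate and ethylene growth outputs at 22.2%, and 3 lists stand at 0. A gene that also has a shared or an ethylene region does not count.

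Of the 44 genes on the 3 ethylene lists, 3 were bound through air-only regions only (6.82%), near the 7.59% of all genes. None of 19 ethylene signalling genes, from the receptors to EIN3, had an air-only region in its window (0%, exact interval 0 to 17.6), while 6 had a shared one. Of 16 biosynthesis genes, EOL2, which helps to mark ACC synthases for breakdown, was bound with an enrichment of 5.14 and 44 fragments over 7.75. EFE (AT1G05010), an ethylene biosynthesis gene, had an air-only region 648 bp inside, beyond the window, with 3.98 and 43 fragments over 10.0. Of 9 genes of ethylene growth outputs, 2 were bound through air-only regions only (22.2%, 2.81 to 60.0). ARGOS, which promotes organ growth and lowers ethylene sensitivity, had an enrichment of 3.24 with 41 fragments over 12.0. Its relative ARL had 5.47 with 26 fragments over 3.94. At EDF3, a transcription factor gene induced by ethylene, the air-only region (enrichment 3.89) lay 293 bp from an ethylene region, and the gene also had a shared region.

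ERF transcription factors, which bind GCC boxes in promoters, had 6 of 36 genes bound through air-only regions only (16.7%, 6.37 to 32.8). ERF6, an activator of defence genes, had the deepest region of these, with 93 fragments (75.1 to 114) over 14.6 and an enrichment of 6.03, 179 bp inside its end (chromosome 4, 9752918 to 9753165). ERF7 and ERF10 encode repressors with an EAR motif, and had enrichments of 6.48 and 4.46. ERF71 and RAP2.2, factors of the low-oxygen response, had 5.93 and 4.43, and CRF1, a cytokinin response factor, had 3.88. The summits counted for ERF7 and ERF71 were nearer to ABCI15 and FUM1. ERF4, another repressor, had an air-only region with an enrichment of 3.90 beside a shared region. A further air-only region nearest to ERF4 lay 1112 bp outside it, beyond the window, with 4.82 and 35 fragments.

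Jasmonate genes had 6 of 27 members bound through air-only regions only (22.2%, 8.62 to 42.3). Of these, 4 act in the synthesis of the hormone from linolenic acid. LOX4, a lipoxygenase, carried 68 fragments (52.8 to 86.2) over 12.9, with an enrichment of 4.96, although its summit was nearer to AT1G72530. AOS, the allene oxide synthase of the following step, carried 46 over 7.82, with 5.33 (chromosome 5, 17099214 to 17099651). A further air-only region nearest to AOS lay outside the window. AOC3, an allene oxide cyclase, carried 31 over 3.94, with 6.48, and OPR3, a reductase that acts later in peroxisomes, 34 over 7.18, with 4.28. The other 2 were repressor genes, JAZ1 with an enrichment of 5.50 and JAZ12 with 4.27. The JAZ1 summit lay 712 bp outside that gene, inside the annotated gene AT1G05473. The gaps from the 6 regions within the windows to the nearest ethylene region were 11742 to 55300 bp.

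Rapid stress genes had 6 of 25 bound in this way (24.0%, 9.36 to 45.1), ERF6 among them. The MAP kinase kinase genes MKK5 and MKK9 had enrichments of 5.85 and 5.59, with 72 and 28 fragments, and their summits lay 366 and 482 bp outside, that of MKK5 nearer to AT3G21215. The zinc finger genes ZAT10 and ZAT6 had 5.06 and 3.07. ZAT10 had 24 fragments at the background floor, and ZAT6 80 over a background 6.44 times the floor. WRKY70, a factor between salicylic acid and jasmonate defence, had 4.45. Without regions of 5 times the floor or more, 5 genes of this list were left.

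In the abscisic acid list 2 of 30 genes were bound in this way (6.67%). NCED3, the dioxygenase of the rate-limiting step of abscisic acid synthesis, had regions near both its ends, with enrichments of 6.64 (66 fragments) and 3.58 (35 fragments). The summits were 216 and 390 bp inside. PYR1, an abscisic acid receptor, had 5.54 with 33 fragments, and a further air-only region nearest to it lay outside the window. Auxin genes had 4 of 49 (8.16%), near the share of all genes. These were the receptor gene TIR1 (enrichment 2.96), the response factor gene ARF17 (3.38) and the repressor genes IAA2 (5.06) and IAA12 (4.64). IAA16 had an air-only region with 4.16 and 31 fragments, but also an ethylene region in its window.

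Gibberellin and brassinosteroid genes had 4 of 24 (16.7%, 4.74 to 37.4). DWF4 and CPD, cytochrome P450 enzymes of brassinosteroid synthesis, had enrichments of 5.09 with 26 fragments and 3.24 with 58. Each also had a deeper air-only region beyond the window, 906 and 903 bp inside, with enrichments of 4.70 and 4.52. BKI1, an inhibitor of the brassinosteroid receptor, had 4.71, and RGA, a DELLA repressor of gibberellin responses, 3.16. Light signalling genes also had 4 of 25 (16.0%, 4.54 to 36.1). FHY1 and FHL, which carry phytochrome A into the nucleus, had 4.16 and 3.40, FHY3, a transcription factor of the same pathway, 3.98, and HY5, the bZIP factor of light-grown development, 3.99. At FHY1, FHY3 and HY5 the nearest gene end was that of AT2G37670, AT3G22180 and OCP3.

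Of 20 clock genes, ELF3 and LUX, both of the evening complex, were bound through air-only regions only (10.0%), with enrichments of 5.77 and 3.57. The LUX summit was nearer to AT3G46630. CHE, a clock repressor gene, had an air-only region with 4.26 beside a shared one. Of 56 genes of histone modification and chromatin, 5 were bound in this way (8.93%), near the share of all genes. Beside OTLD1 these were the acetyltransferase genes GCN5, HAM1 and HAC5 and the SWI/SNF subunit gene SWI3D. HAC5 had an enrichment of 5.53 with 43 fragments, HAM1 4.49 with 98 over a background 5.34 times the floor, GCN5 4.35 with 64, and SWI3D 3.39 with 44. At CLF, a histone methyltransferase of the Polycomb group, and ELF6, a histone demethylase, an air-only region stood beside a shared one, each nearer to a neighbouring gene. Without regions of 5 times the floor or more, 4 genes of this list were left.

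Reference genes with constitutive expression were at 0 of 12 (exact interval 0 to 26.5). However, 6 of the 12 had a shared region, and such genes cannot count as bound through air-only regions only. An air-only region was present at 2 of them, GAPC1 and TIP41L, each time beside a shared one. That is 16.7% of the list, against 8.77% of all genes. At GAPC1 the air-only region carried 96 fragments over 12.9 for an enrichment of 6.97, 221 bp outside the gene and nearer to AT3G04130. Flower identity genes, which stand for an organ absent from such seedlings, were at 0 of 10 (0 to 30.8), and none had an air-only or a shared region.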

How the data were processed

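BWA (alignment to TAIR10) and MACS2 2.1.0.20150603 (peak calling) are named in the submitters' processing notes. The authors deposited 1 list per treatment, named optimal, for 2 ChIP and 2 input samples. What makes a list optimal is not stated in those sources. The deposited fold enrichment (a ratio), −log10 p and −log10 q are the authors' values per region, and the deposited score, 10 times −log10 p without decimals, was not used. Positions are counted from 1. Library totals and the signal tracks named in the labels were not used here.

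Whole-number pile-up and local background were solved from the deposited fold enrichment and −log10 p, taking fold as pile-up plus 1 over background plus 1 and p as the Poisson tail above the pile-up. The largest misfit was 0.000196 in −log10 p. Gene names and ends came from the RefSeq table of assembly TAIR10.1, and 42.5% of air-only summits fell in the first 200 bp of a gene from either end, against 9.59% and 10.5% after shifts of 10000 bp. Distances rest on that table. It holds no sequence, so the planned motif and GC descriptions were not made. Shares have exact (Clopper-Pearson) and pile-ups exact Poisson 95% intervals (scipy 1.17.1). Overlap and distance functions were tested on simulated data. The members and lists were chosen with earlier results of these data known. The text names the nearest genes of the 10 highest members by fold and by −log10 p, list members with an air-only region, up to 5 genes with most members and 3 regions on each side of the overlap rule. Genes named beyond this were chosen after their values were seen.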

Additional observations from a re-analysis of the deposited data

How the results depend on the processing

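The air-only share of 41.3% was 41.0% and 42.6% when an ethylene region within 100 bp counted as shared or when 50% of the air region had to be covered. It was 39.3% when an ethylene region within 500 bp counted as shared. It was 19.3% among air regions at or above the median −log10 q, and 65.4% when only ethylene regions at or above their own median counted. At or above the median −log10 q of the air list, 70.2% of air-only summits were in the first 500 bp from a gene end, 13.1% deeper inside, 11.9% in the 1000 bp outside and 2.06% in other annotated genes, and 497 genes in place of 2082 were bound through air-only regions only. The share in the first 500 bp was then nearer to that of shared regions under the same limit (74.2%). The share outside genes was below that of shared regions (14.0%), the cause of which was not tested. With high-background regions (5 times the floor and above) removed, a setting chosen after seeing the data, the air-only share was 39.4% and the deep share 7.93%. The other class shares moved by less than their intervals under the gap of 500 bp, the region centre and the removal of high background, and 1570, 1463 and 1951 genes were bound under the short window, the nearest end and that removal. With the short window (500 bp outside to 200 bp inside) the counts of 8 of 14 gene lists moved by over 1.5 times, so a count for a list depends on the window. Jasmonate then had 3 genes, rapid stress 3 and ERF 2. Motif and GC alternatives were not run. No paired analysis was possible because the lists join both replicates of a treatment into 1 value a region, which also prevents leaving one out. Pile-ups as low as 23 fragments limit the precision of the weakest members.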

Other observations

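Families named by gene symbol show where else air-only regions stood. The families given were chosen after their values were seen, and stand beside the 7.59% of all genes without a test. Of 22 plant U-box ubiquitin ligase genes, 5 were bound through air-only regions only (22.7%, exact interval 7.82 to 45.4), namely PUB4, PUB9, PUB19, PUB23 and PUB39. PUB39 had the lowest enrichment of them, 2.38 with 81 fragments over a background of 33.5.

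Homeodomain HB factors had 6 of 41 genes bound in this way (14.6%, 5.57 to 29.2). They were HB-1, HB5, HB-7, HB17, HB34 and AT5G46880. HB5 had the highest enrichment, 7.08, with 35 fragments and a summit 20 bp outside the gene. Calcium-dependent protein kinases had 4 of 29 (13.8%, 3.89 to 31.7), namely CPK21, CPK28, CPK30 and CPK32. Of 46 genes with symbols of the aquaporin type, 0 were bound in this way, but the symbols also took in genes of other kinds. Cytochrome P450 genes had 11 of 229 (4.80%) and MYB factors 6 of 115 (5.22%).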
